A study of Homo sapiens with 6 samples.

Results

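MIR548 is among the largest groups of related human microRNA genes, and 77 features of the Clariom D array carried a single gene symbol beginning with MIR548. They were taken by that prefix in the platform's probe-to-gene annotation, out of 138745 features in all, and every feature was kept whatever its signal. The 77 features covered 72 symbols on 22 chromosomes. Of these features, 76 stand for microRNA genes, and 1, MIR548XHG, stands for a long non-coding host gene that the prefix also caught. Signals are log2 values, a difference is the calcitriol mean minus the vehicle mean, and a difference of 1 is a doubling.

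The RNA came from CaSki cells, an established line from a human cervical carcinoma that carries human papillomavirus. For 24 h the cells were given calcitriol, the active hormone form of vitamin D, at 10 nM, or its vehicle, ethanol at 0.1%, and neither group carried an engineered genetic change. Each group was measured as 3 pools of total RNA on 1 array each, and every pool mixed RNA from replicates of the same set of experiments. Since no pool is a separate culture series, each p-value reflects only how much the pools scattered, and that scatter may be technical. All values describe 1 cell line, 1 dose and 1 time.

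A microRNA gene is transcribed into a long precursor, which the nuclear enzyme DROSHA with its partner DGCR8 trims to a hairpin. XPO5 carries the hairpin to the cytoplasm, DICER1 cuts it to a short duplex, and 1 strand is loaded onto an Argonaute protein such as AGO2. The bases near the 5′ end of the loaded strand, its seed, pair with messenger RNAs that are then repressed. Many MIR548 genes arose in primates from copies of a short palindromic transposon, Made1, whose inverted repeats fold into a hairpin when transcribed, and the copies are spread over the genome with closely similar strands. The array read total RNA, so a MIR548 signal does not separate the mature strand, the hairpin and a longer transcript that crosses the gene. Probe sequences were not used here, and binding of 1 feature to RNA from a similar copy was not tested.

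Mature sequences were found for 49 of the 71 microRNA symbols in the RefSeq tables for GRCh38.p14. They are shown for the genes whose features differed by a fold of at least 1.5 with an unadjusted p under 0.05. Strands run 5′ to 3′, with the seed (bases 2 to 8) in capitals. MIR548AE1 lies on chromosome 2 and MIR548M on chromosome X. MIR548AP lies on chromosome 15, MIR548AC on chromosome 1 and MIR548T on chromosome 4.
hsa-miR-548ae-3p (chr2:184379017-184379037, plus strand): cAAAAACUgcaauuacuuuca
hsa-miR-548m (chrX:95063192-95063212, minus strand): cAAAGGUAuuugugguuuuug
hsa-miR-548ap-5p (chr15:85825655-85825673, plus strand): aAAAGUAAuugcggucuuu
hsa-miR-548ac (chr1:116560038-116560059, minus strand): cAAAAACCggcaauuacuuuug
hsa-miR-548t-5p (chr4:173268169-173268189, plus strand): cAAAAGUGaucgugguuuuug
All of these strands start with A or C followed by a run of A, yet their seeds differ from one another.

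The whole hairpin of MIR548M is shown as an example of the fold-back form of the family (RefSeq, GRCh38.p14, chrX:95063141-95063226, minus strand, 86 bases), with the mature strand at bases 15 to 35 in capitals.
MIR548M hairpin: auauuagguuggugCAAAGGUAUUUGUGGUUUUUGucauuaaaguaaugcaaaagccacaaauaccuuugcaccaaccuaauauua
The stretch after the loop runs back along the mature strand, as in an inverted repeat.

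Across the 49 genes with a sequence, which included none on chromosome 8, 53 distinct mature names with 28 seeds were matched. The median share of A and U was 66.7% of bases, with a range from 45.5% to 84.2%, against a median of 47.8% over 2315 other human mature names. The letters AAAAGUAA stood in 16 of the 53 names (30.2%) and in 0 of the 2315 others. Its reverse complement, UUACUUUU, stood in 14 names (26.4%) and in 2 others. Either of the pair, searched on the given strand only, was found in 30 names (56.6%) and in 0.0864% of the others. Among the matched names these stretches are thus a mark of the family and not of single genes.

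A feature was counted as above the negative controls where its mean over the 6 arrays exceeded 6.32, the level that 95% of the 612 negative control features stayed under. Of the 77 MIR548 features, 25 (32.5%) did so, against 17.8% of all features and 12.6% of the 1430 other microRNA features. Another 34 lay between the median of the negative controls (4.44) and that level, and 18 lay below the median. The 25 included 23 that were above the level on all 6 arrays and 15 with a mean over 8. The median signal was 5.56 over the MIR548 features, 4.23 over the other microRNA features and 4.28 over all features. By this measure the array gave, for most MIR548 genes, no signal that could be told from background, and a difference between groups in those features is a difference between signals at background level.

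The brightest feature by mean was one annotated to MIR548N, at 19.25, with pools at 19.07, 19.18 and 19.57 in vehicle and 19.24, 19.23 and 19.23 in calcitriol. Its identifier places it on chromosome 1, whereas the RefSeq gene MIR548N lies on chromosome 7, so it was not read as the level of that microRNA. MIR548AA2 followed with a mean of 11.59, MIR548AZ with 10.32, MIR548U with 10.16 and MIR548D2 with 10.04. Their differences were 0.27 for MIR548AA2 (SE 0.32), -0.24 for MIR548AZ (SE 0.29), 0.15 for MIR548U (SE 0.27) and -0.24 for MIR548D2 (SE 0.30), each within the spread of its pools. Different features are read by different probes, so these signals place each gene against the controls and do not rank the genes by amount of RNA.

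**Figure D1:**
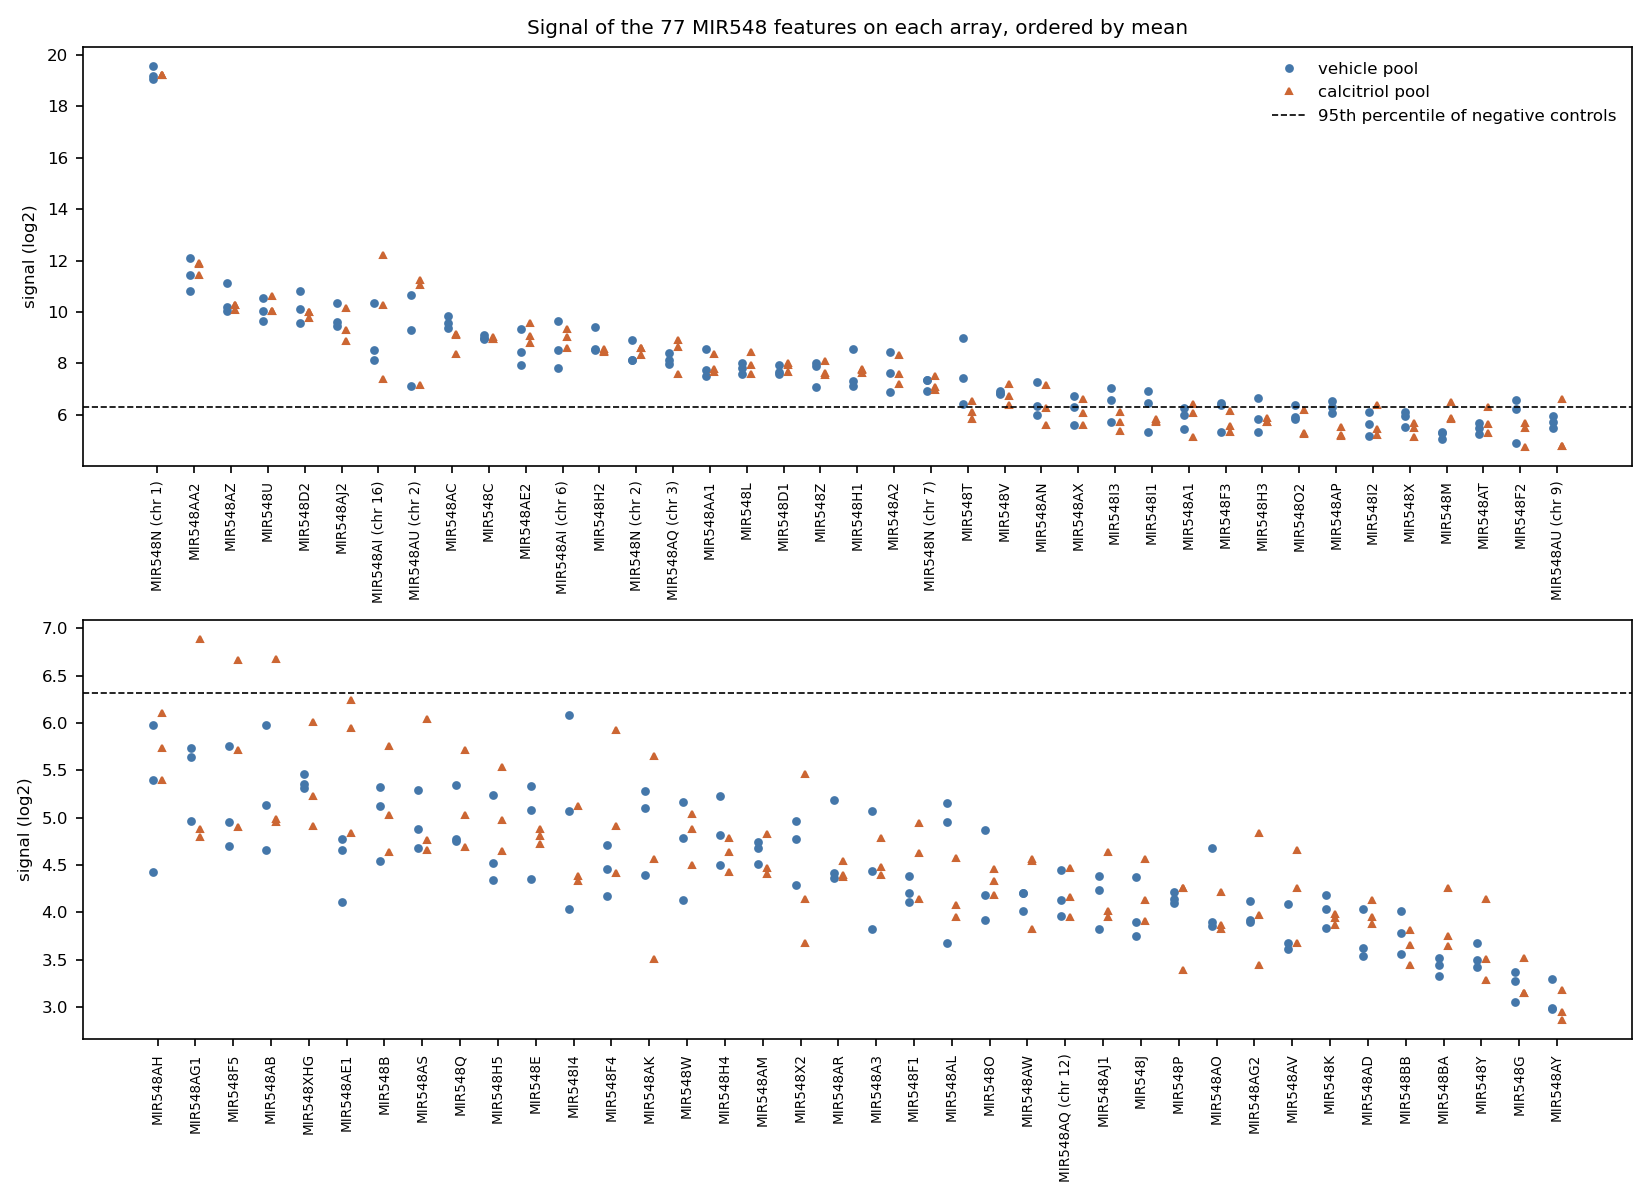
Log2 signal (vertical axis) of the 77 MIR548 features, ordered by mean, with 3 vehicle pools (circles) and 3 calcitriol pools (triangles) each; the dashed line at 6.32 is the 95th percentile of the negative controls. The circles and triangles of most features lie among each other, and 25 features have a mean above the line.

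With calcitriol, MIR548 features did not shift as a group. The median difference was 0.01 over the 77 features, against -0.00 over all features and 0.05 over the other microRNA features, and centring the arrays on 8 exogenous control features moved both the MIR548 median (0.35) and the median of all features (0.34) by about the same step. There were 40 positive and 37 negative differences, and 65 of the 77 were under 0.5 in size. No MIR548 feature passed an adjusted p of 0.05: the count was 0 (background 0.000721%), the smallest adjusted p was 0.915, and 5 features had an unadjusted p under 0.05 (6.49%, against 5.41% of all features). At a fold of at least 1.5 with an unadjusted p under 0.05, 5 features passed (6.49%), against 2.98% of all features and 2.94% of the other microRNA features. The 2 higher features were MIR548AE1 and MIR548M (background 1.43%), and the 3 lower ones were MIR548AC, MIR548AP and MIR548T (background 1.56%). Centred on the exogenous controls, 8 were higher and 1 was lower, and over all features 13.7% were higher and 0.169% lower, so this scaling moved the whole array and the balance of directions depends on it. In bulk RNA, fewer cells that express a gene and less RNA per cell cannot be told apart.

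**Figure D2:**
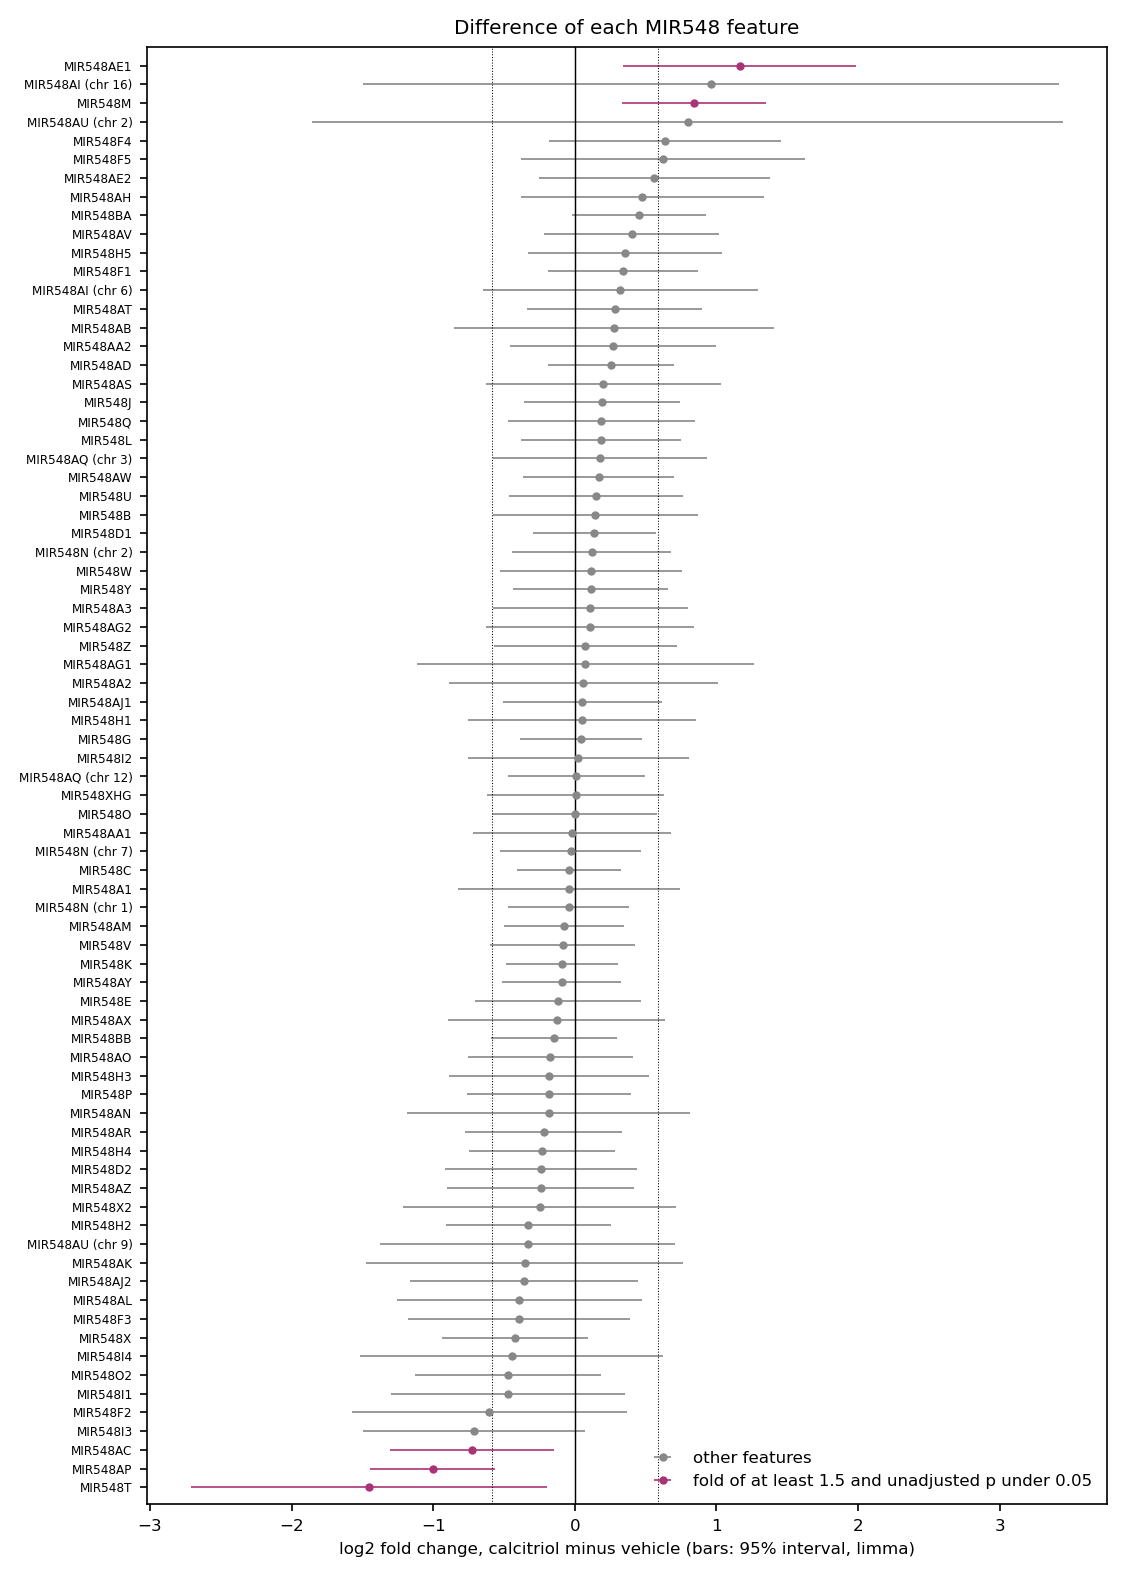
Difference between calcitriol and vehicle (log2, horizontal axis) for each MIR548 feature with its 95% interval from limma; dotted lines mark a fold of 1.5 and colour marks the 5 features past that fold with an unadjusted p under 0.05. The estimates run from -1.45 to 1.16, and the widest intervals belong to the chromosome 16 feature of MIR548AI and the chromosome 2 feature of MIR548AU.

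MIR548AE1 (feature TC0200010191.hg.1), which gives miR-548ae-3p, had the largest positive difference of the 77. Its signals were 4.11, 4.66 and 4.78 in the vehicle pools and 5.95, 4.84 and 6.25 in the calcitriol pools. Calcitriol pools 1 and 3 stood well above every vehicle pool, and calcitriol pool 2 lay just above the highest of them, so the groups did not overlap. The mean went from 4.52 ± 0.36 to 5.68 ± 0.74 (SD, n = 3), a difference of 1.16 (SE 0.36, 95% interval 0.34 to 1.99, unadjusted p = 0.0113, adjusted p = 0.915), or 2.24-fold. All 6 signals were under the level of the negative controls.

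MIR548M (feature TC0X00010291.hg.1), on the X chromosome, had signals of 5.28, 5.04 and 5.33 in vehicle and 6.48, 5.81 and 5.88 in calcitriol. Every calcitriol pool exceeded every vehicle pool, and calcitriol pool 1 alone passed the level of the negative controls. The mean went from 5.21 ± 0.15 to 6.06 ± 0.37 (SD, n = 3), a difference of 0.84 (SE 0.22, 95% interval 0.34 to 1.35, unadjusted p = 0.00467, adjusted p = 0.915).

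MIR548AP (feature TC1500008198.hg.1) had the smallest unadjusted p of the 77 features. Its signals were 6.08, 6.31 and 6.52 in vehicle and 5.52, 5.18 and 5.21 in calcitriol, so each calcitriol pool lay below each vehicle pool. The mean went from 6.30 ± 0.22 to 5.30 ± 0.19 (SD, n = 3), a difference of -1.00 (SE 0.19, 95% interval -1.44 to -0.56, unadjusted p = 0.000696, adjusted p = 0.915), or 2.00-fold lower. Vehicle pool 3 alone exceeded the level of the negative controls.

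MIR548AC (feature TC0100015400.hg.1) was the one gene of these 5 whose signals were far above the negative controls in every pool. They were 9.55, 9.85 and 9.38 in vehicle and 8.36, 9.15 and 9.11 in calcitriol, without overlap, and calcitriol pool 1 was the lowest. The mean went from 9.59 ± 0.24 to 8.87 ± 0.45 (SD, n = 3), a difference of -0.72 (SE 0.25, 95% interval -1.30 to -0.14, unadjusted p = 0.0201, adjusted p = 0.915). It no longer passed both thresholds without calcitriol pool 1 (-0.47), the lowest array, or without vehicle pool 2 (-0.60), the highest, nor when the arrays were centred on the exogenous controls (-0.38).

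MIR548T (feature TC0400009324.hg.1) had the most negative difference of the 77 and, among these 5, the least even pools. Its signals were 6.43, 7.45 and 8.99 in vehicle and 5.85, 6.53 and 6.12 in calcitriol. Vehicle pool 3 stood far above the rest, and vehicle pool 1 lay below calcitriol pool 2, so the groups overlapped. Calcitriol pools 1 and 3 lay under the level of the negative controls, as did the mean of the calcitriol pools. MIR548T thus counted among the features above that level through its vehicle pools. The mean went from 7.62 ± 1.29 to 6.17 ± 0.34 (SD, n = 3), a difference of -1.45 (SE 0.55, 95% interval -2.71 to -0.20, unadjusted p = 0.0282, adjusted p = 0.915). Without vehicle pool 3 the difference was -0.77 and the thresholds were not passed, nor were they without calcitriol pool 1 (-1.30), without calcitriol pool 3 (-1.43) or with exogenous centring (-1.11).

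**Figure D3:**
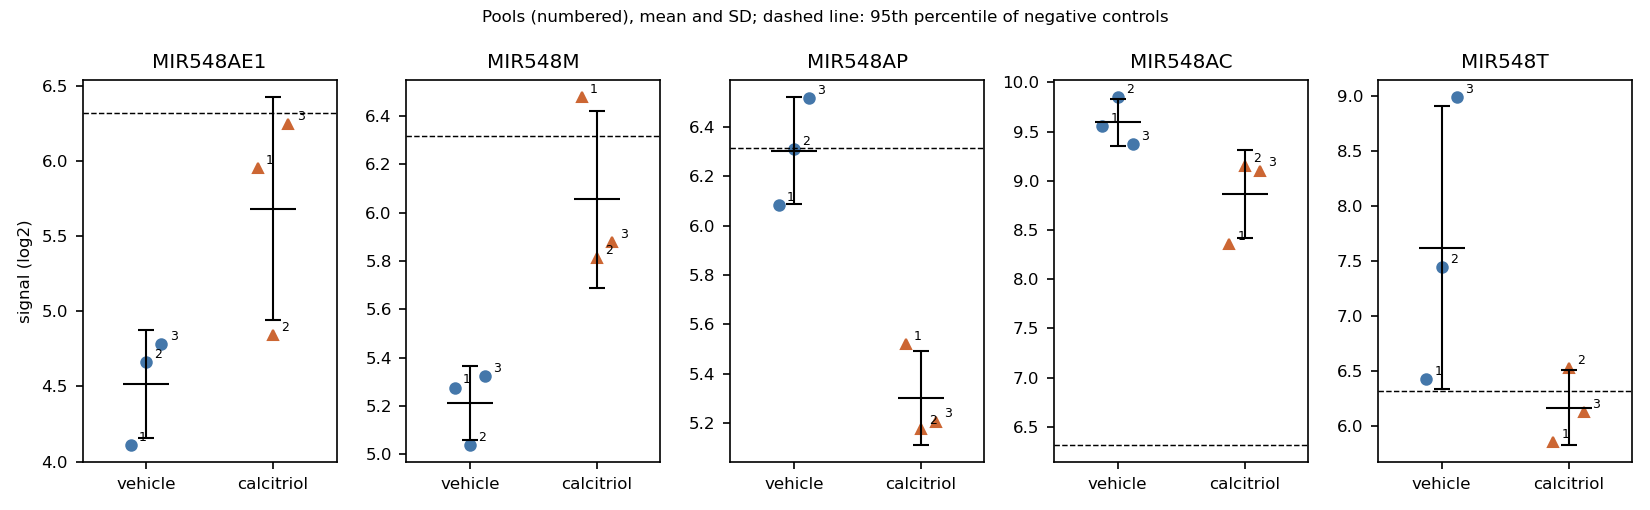
Log2 signal of the 5 MIR548 features past a fold of 1.5 and an unadjusted p under 0.05, with each pool numbered, the mean and SD of 3 pools per group, and the 95th percentile of the negative controls (dashed line, 6.32); the vertical scale differs between panels. MIR548AC lies wholly above the line, MIR548AE1 wholly below it, and the high vehicle mean of MIR548T rests on vehicle pool 3 at 8.99.

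Groups without overlap were found for 5 MIR548 features (6.49%), against 10.7% of all features and 12.7% of the other microRNA features, a lower share than the background. They were MIR548AE1, MIR548M and MIR548BA on the higher side (background 5.16%) and MIR548AP and MIR548AC on the lower side (background 5.55%). MIR548BA had 3.33, 3.44 and 3.52 in vehicle and 3.64, 3.75 and 4.26 in calcitriol, a difference of 0.45 (SE 0.21) that did not reach a fold of 1.5. With 3 pools in each group, the lowest p that exact permutation can reach is 0.1, which a feature attains when its groups do not overlap.

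A fold of 1.5 alone was reached by 6 features on the higher side (7.79%, background 2.22%) and 5 on the lower side (6.49%, background 2.32%). Beyond the 5 genes already described, the lower ones were MIR548I3 at -0.71 (SE 0.34, unadjusted p = 0.0707) and MIR548F2 at -0.60 (SE 0.43). The higher ones were MIR548F4 at 0.64 (SE 0.36), MIR548F5 at 0.62 (SE 0.44) and features annotated to MIR548AI and MIR548AU. MIR548I3 had 7.03, 5.70 and 6.58 in vehicle and 6.11, 5.36 and 5.73 in calcitriol, with vehicle pool 2 below calcitriol pools 1 and 3. Beside this larger share past the fold, MIR548 features had a larger spread between pools of the same group than other microRNA features. A link between the share and the spread was not tested. The median within-group SD was 0.44 over the MIR548 features and 0.24 over the other microRNA features. It was 0.45 and 0.26 when only features above the negative controls were taken. The spread was not particular to MIR548: the 8 features of another microRNA group, MIR1302, also had a median of 0.44. Their differences ran from -0.58 to 0.43.

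Vehicle pool 3 was the array with the highest signal for 25 of the 77 MIR548 features (32.5%), against 17.4% of all features and 16.6% of the other microRNA features. Among the 25 MIR548 features above the negative controls it was highest in 13 (52%) and lowest in 0, and their median deviation from the feature mean on that array was 0.49. Over the other microRNA features above the controls the pool was highest in 22.2%, and over all features above the controls in 21.0%. Vehicle pool 2 was the lowest array for 25 of the 77 (32.5%), against 18.0% of all features and 23.8% of the other microRNA features. Among features above the controls it was lowest for 40% of MIR548, 32.2% of other microRNA and 14.3% of all features. Its low signals were thus frequent in other microRNA features too, with a larger share in MIR548. Calcitriol pool 1 was the lowest array for 30.4% of all features above the controls, as it was for MIR548AC. It was the lowest for 24% of the MIR548 features above the controls. The medians over all features ran from 4.27, in vehicle pool 2, to 4.33 across the 6 arrays. The part of this pattern in the group differences, beyond the values given without each pool, was not tested.

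**Figure D4:**
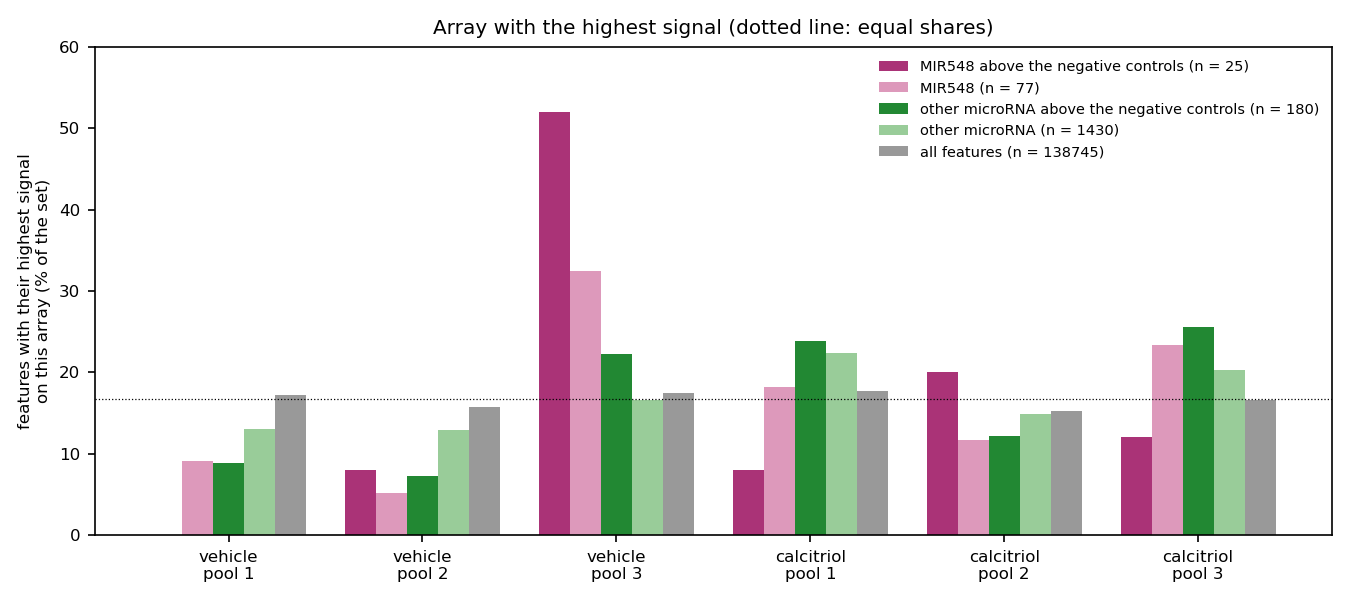
Share of features (%, vertical axis) with their highest signal on each of the 6 arrays, for MIR548 features, other microRNA features and all features; the dotted line is an equal share. MIR548 features above the negative controls reach 52% on vehicle pool 3, where the other microRNA features above the controls reach 22.2%.

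Genes that share a seed would repress similar targets, so differences were also read by seed. Only the 49 genes with a mature sequence were placed, so each seed group may lack members. MIR548I3, MIR548AA2 and MIR548D2, for example, were not placed. Among the 49 genes, the seed AAAGUAA was the most frequent, with 11 genes that included MIR548AP. Their features ran from -1.00 to 0.28 with a median of 0.12, and apart from MIR548AP none passed both thresholds. The seed AAAAACU, with 10 genes that included MIR548AE1, ran from -0.42 to 1.16 with a median of 0.12, and 3 of its features were above the negative controls. AAAACUG had 6 genes, none above the controls and none past the thresholds, with differences from -0.60 to 0.64. The 4 genes with AAGGUAA all had positive differences, from 0.07 to 0.45, and none passed the thresholds. Among the genes with a sequence, MIR548AC shared AAAAACC with MIR548BB alone, whose difference was -0.15. Positive and negative differences stood side by side in the 3 seed groups with most genes among those placed.

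Several MIR548 genes give the same mature strand from different chromosomes, and their strands are shown because the copies can be compared with each other.
hsa-miR-548f-3p (MIR548F1 to MIR548F5): aAAAACUGuaauuacuuuu
hsa-miR-548aj-3p (MIR548AJ1 and MIR548AJ2): uAAAAACUgcaauuacuuuua
hsa-miR-548x-3p (MIR548X and MIR548X2): uAAAAACUgcaauuacuuuc
The strand of miR-548ae-3p, shown above, comes from MIR548AE1 and MIR548AE2.

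MIR548AE2, on chromosome 5, was above the negative controls in every pool, with 8.43, 7.94 and 9.34 in vehicle and 8.78, 9.06 and 9.56 in calcitriol. Its pools overlapped, and the difference of 0.56 (SE 0.36, 95% interval -0.25 to 1.38) had the direction of MIR548AE1 without passing the thresholds. MIR548AJ2 had a mean of 9.62 and a difference of -0.36 (SE 0.35), whereas MIR548AJ1 was below the median of the negative controls at 4.18, with 0.05 (SE 0.25). The 5 copies of miR-548f-3p were all at background level, with means from 4.40 to 5.86. Their differences were 0.34 for MIR548F1, -0.60 for MIR548F2, -0.39 for MIR548F3, 0.64 for MIR548F4 and 0.62 for MIR548F5, with standard errors from 0.23 to 0.44. Copies of 1 strand thus spanned 1.24 log2 units, and no copy of miR-548f-3p passed the thresholds.

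**Figure D5:**
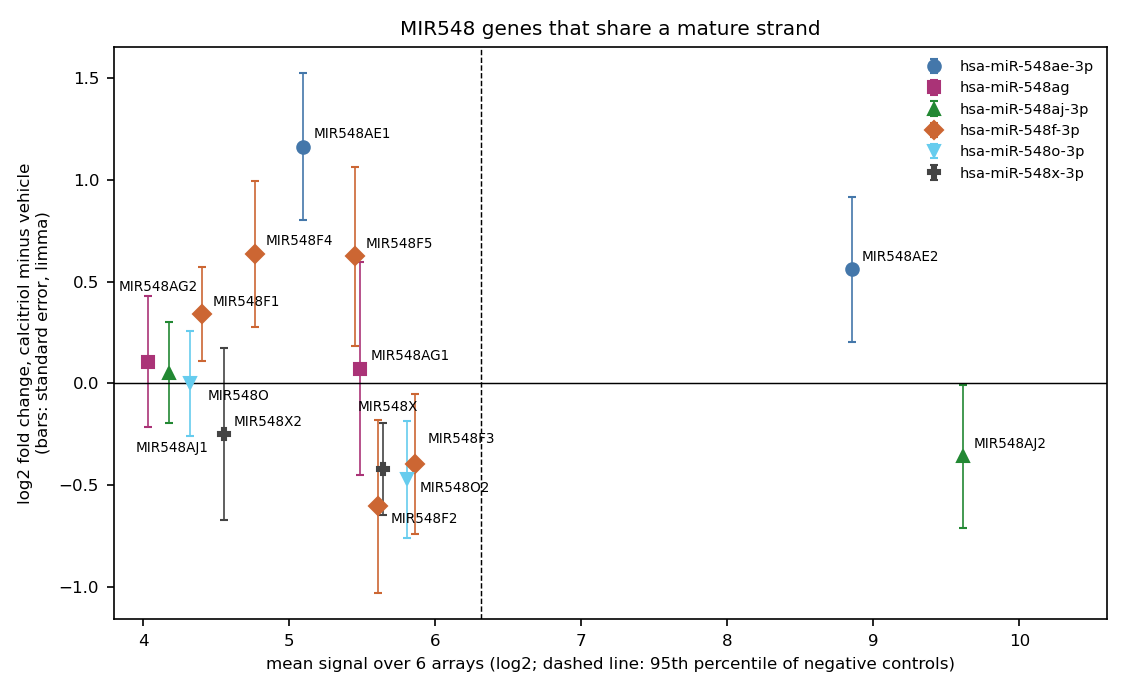
Difference between calcitriol and vehicle (log2, with standard error) against mean signal over 6 arrays (log2) for the MIR548 genes whose RefSeq mature strand is shared by name; the dashed line is the 95th percentile of the negative controls. Genes without a mature sequence here are not shown. Of the genes shown, MIR548AE2 and MIR548AJ2 alone lie above the controls, and the 5 copies of miR-548f-3p fall on both sides of 0.

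Some pairs of MIR548 genes have the same start and end in RefSeq, and each gene of a pair has its own feature on the array. The sources used here did not give the strands of both genes of a pair, so the features were not read as repeats of 1 RNA. On chromosome 17, MIR548AA2 and MIR548D2 had differences of 0.27 and -0.24, and both were highest in vehicle pool 3, at 12.11 and 10.81. On chromosome 12, MIR548C was the most even of the bright features, with 8.96, 8.97 and 9.11 in vehicle and 8.95, 9.02 and 8.95 in calcitriol, and a difference of -0.04 (SE 0.16). Its partner MIR548Z had a difference of 0.07 (SE 0.28). Both genes of the chromosome 8 locus, MIR548AA1 and MIR548D1, had means above the negative controls, at 7.93 and 7.80, and differences of -0.02 and 0.14.

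Many microRNA genes sit inside longer genes and can be transcribed with them. Of the 71 MIR548 microRNA features on the chromosome of their RefSeq gene, 49 lay inside the span of another RefSeq gene. Of the 49, 27 were on the strand of such a gene, 6 lay only opposite to one, and for the other 16 the tables used here did not give the orientation. For 26 of the 27 the host had a feature of its own, and 15 of those hosts were above the negative controls. Inside these 15 hosts, 6 MIR548 features were above the controls, and inside the other 11 hosts 1 was, MIR548C in RASSF3. The difference had the same sign in gene and host in 10 of the 26 pairs, and across these 26 pairs, which share arrays, r was 0.04 (rho -0.11). Of these 26 hosts SHROOM3 alone passed both thresholds (background 2.98%), at -0.61 (SE 0.17, adjusted p = 0.915). MIR548AH inside it had a difference of 0.48 (SE 0.37). Among the 10 hosts of unknown orientation with a feature, MTUS1, a gene for a microtubule-associated protein, passed as well, at -0.72 (SE 0.17, adjusted p = 0.915). MIR548V inside it had -0.09 (SE 0.22).

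MIR548AC lies within CD58, which encodes a surface adhesion protein that binds CD2 on T cells. CD58 had signals of 9.90, 9.91 and 9.85 in vehicle and 8.77, 9.05 and 9.96 in calcitriol. Calcitriol pool 3 was above every vehicle pool, so the groups overlapped, and the difference was -0.63 (SE 0.29, unadjusted p = 0.0631, adjusted p = 0.915). MIR548T lies within GALNT7, a glycosyltransferase gene, which had a mean of 11.43 and a difference of -0.30 (SE 0.18), and the high vehicle pool 3 of MIR548T was not seen in it (11.44, 11.83 and 11.47 in vehicle). MIR548U lies within PRIM2, which encodes a DNA primase subunit and had a mean of 11.44. MIR548AP and MIR548M lay in no other RefSeq gene, and MIR548AE1 lay opposite to one long non-coding RNA gene and inside another whose orientation was not known.

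For 4 symbols the array held more than 1 feature, 9 in all, and 5 of these were identified with a chromosome other than that of the RefSeq gene. The chromosome 16 feature of MIR548AI had 8.12, 10.35 and 8.50 in vehicle and 10.26, 12.20 and 7.40 in calcitriol, a difference of 0.96 (SE 1.08) with wide overlap. The chromosome 2 feature of MIR548AU had 9.30, 7.12 and 10.65 in vehicle and 7.17, 11.04 and 11.26 in calcitriol, a difference of 0.80 (SE 1.16). Both had the largest within-group SDs of the family (1.90 and 2.06).

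The chromosome 6 feature of MIR548AI had a mean of 8.83 and a difference of 0.32 (SE 0.43). MIR548AU on chromosome 9 had a mean of 5.56 and -0.33 (SE 0.46). The features of MIR548AU thus had opposite signs. The features of MIR548N had differences of -0.04 (chromosome 1), 0.12 (chromosome 2) and -0.03 (chromosome 7), with SEs from 0.19 to 0.25, and those of MIR548AQ had 0.18 (chromosome 3, mean 8.27) and 0.01 (chromosome 12, mean 4.19). MIR548XHG, the host gene caught by the prefix, had a mean of 5.38, under the level of the controls, and a difference of 0.01 (SE 0.27).

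The genes that make, load and degrade microRNAs gave a reference for the whole path. Of 23 measured, 18 were above the negative controls, and 0 passed both thresholds in either direction (background 2.98%), with a median difference of -0.15 (all features -0.00). DROSHA had a mean of 13.28 and a difference of -0.09 (SE 0.20), DGCR8 7.08 and 0.19 (SE 0.28), XPO5 10.40 and -0.24 (SE 0.18), DICER1 9.59 and -0.07 (SE 0.21), and AGO2 11.16 and -0.19 (SE 0.21). Among 3 other groups of microRNA genes, those above the negative controls were 0 of 8 MIR1302 features, 0 of 40 features of the chromosome 19 cluster and 1 of 7 let-7 features. No feature of these groups passed both thresholds (background 2.98%).

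The treatment itself was plain in CYP24A1, the vitamin D target gene for the enzyme that inactivates calcitriol, which went from 4.99 ± 0.74 to 12.59 ± 0.82 (SD, n = 3; adjusted p = 0.0137) and alone of all features (0.000721%) had an adjusted p under 0.05. All 7 measured epithelial and keratin markers of cervical carcinoma cells were above the negative controls, as were 2 of 4 fibroblast markers (COL1A1 and COL1A2), 1 of 3 leukocyte markers (CD68) and 0 of 3 endothelial markers. None of these markers passed both thresholds (background 2.98%). No 2 arrays held identical values.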

How the data were processed

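The authors combined total RNA from replicates of 3 experiments into 3 pools per condition, hybridised each to a Clariom D array, and used Transcriptome Analysis Console for background correction and normalization. The deposited values are log2 signals and were used as given. The array annotation's genome build is not given in the sources used here. All 138745 features were fitted with limma 3.58.1 in R 4.3.3 (lmFit and eBayes, 2-sided, groups only), with Benjamini-Hochberg adjustment over all of them, after a test on simulated data. Both thresholds were passed with an unadjusted p under 0.05 together with a fold of 1.5 or more. Negative controls set the background level (95th percentile).

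The members, lists and alternatives were chosen with earlier results of these data known. Features were named where they met one of these rules: named in the paper on these arrays, past both thresholds, past the fold without overlap, among the 5 highest or lowest differences, among the 5 brightest, among the 3 with the largest within-group SD, or with a symbol that had several features. MIR548BA, MIR548AH, MIR548V, the copies of shared strands and of shared loci, SHROOM3, MTUS1, RASSF3 and the fibroblast and leukocyte markers were named after their values were seen. RefSeq spans (GRCh38.p14) gave hosts without regard to exons and introns. Alternatives covered normalization, variance, filters, thresholds, a replicate block and each array left out.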

Additional observations from a re-analysis of the deposited data

How the results depend on the processing

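At both thresholds, 2 MIR548 features were higher and 3 lower, and the same counts were found with equalised array medians, quantile normalization, an intensity trend in the variance and one feature per gene. Centring on the exogenous controls gave 8 higher and 1 lower and moved the median difference of the MIR548 features to 0.35, where all features moved to 0.34. With ordinary variances 1 was higher (MIR548M) and 1 lower (MIR548AP), among features above the negative controls 0 were higher and 2 lower (MIR548AC, and MIR548T, which passed this filter through its vehicle mean, the calcitriol mean of 6.17 being under the level), and at a fold of 2 there were 1 higher and 2 lower. With any one array left out there were 2 to 5 higher and 2 to 6 lower, with 5 higher without vehicle pool 3 (MIR548AE2, MIR548AH and the chromosome 6 feature of MIR548AI added) and 6 lower without vehicle pool 2. MIR548AE1, MIR548M and MIR548AP passed in each of these, whereas the MIR548 median ran from -0.10 to 0.12. The count past an adjusted p of 0.05 was 0 under every alternative that was fitted. Shares over all features were taken for the main fit and exogenous centring only, so the counts of the other alternatives have no background. Same-numbered pools shared only a number (correlations of their deviations 0.019, 0.034 and 0.037), and with the replicate block 2 were higher, 4 lower (MIR548I3 added) and 0 past the adjusted p. A Tukey biweight average put the difference of MIR548M at 0.55 and that of MIR548AC at -0.45, and the cause was not tested. Without calcitriol pool 3 the chromosome 16 feature of MIR548AI reached 2.24, and without calcitriol pool 1 the chromosome 2 feature of MIR548AU reached 2.13.

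Alternatives chosen after seeing the data left 21 features above the negative controls at their 99th percentile, 21 when each of the 6 arrays had to exceed its own level, 21 among the features on their RefSeq chromosome, and 24 to 25 with an array left out. With 3 arrays per group, the number of arrays limits the precision, and 52 of the features lay at background level.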

Other observations

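One further feature names a protein-coding gene, LPIN1, a regulator of lipid synthesis, together with the MIR548 gene MIR548S. It carried more than 1 symbol and was kept out of all counts. Its signals were 8.76, 9.49 and 8.90 in the vehicle pools and 8.61, 9.24 and 8.25 in the calcitriol pools, and the groups overlapped. The difference was -0.35 (SE 0.30, unadjusted p = 0.265).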
